A study of Homo sapiens with 6 samples.

Results

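Small nucleolar RNA (snoRNA) host genes carry snoRNAs in their introns, and 10 non-coding host genes were followed here in sorafenib-resistant liver cancer cells after fostamatinib. The 10 genes, GAS5, SNHG1, SNHG5, SNHG6, SNHG7, SNHG8, SNHG12, SNHG15, ZFAS1 and EPB41L4A-AS1, were chosen by symbol, and all 10 were found among the 16305 genes of the RNA-seq data. The cells were Huh7-R, a pool that was derived from the human hepatocellular carcinoma cell line Huh7 by long exposure to sorafenib. RNA was measured in 3 samples treated with DMSO, the vehicle, and in 3 samples treated with fostamatinib, an inhibitor of spleen tyrosine kinase. The authors reported that they did not detect the protein of this kinase in Huh7 cells. The labels give 2 µM and 24 h for both groups. They call the samples triplicates but do not name separate cultures, so p-values measure the spread between these samples, which may be technical.

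The snoRNAs are short nuclear RNAs that guide chemical marks onto ribosomal and spliceosomal RNA. Those of the C/D class guide ribose methylation by fibrillarin, and those of the H/ACA class guide pseudouridine formation by dyskerin. They are cut out of the introns of a host transcript after splicing. In a non-coding host the spliced exons encode no long protein, are often exported to the cytoplasm, and in several hosts are known to be destroyed there by nonsense-mediated decay, a pathway coupled to translation. Several hosts start with a run of pyrimidines like that of the mRNAs for ribosomal proteins, which are called TOP (terminal oligopyrimidine) RNAs. The poly(A)-selected reads used here measure the spliced host RNA and not the snoRNAs made from it.

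After fostamatinib, SNHG15, SNHG1, GAS5, SNHG12 and SNHG6 were lower, SNHG7 was higher, and SNHG5, SNHG8, ZFAS1 and EPB41L4A-AS1 did not pass the test. A gene was called changed when its adjusted p-value was under 0.05 in limma's linear model, fitted on log2 CPM (the log2 of read counts scaled for library depth) with Benjamini-Hochberg adjustment over all 16305 genes. In all, 5 of the 10 host genes were called lower, where 24.5% of all genes were, and 1 of 10 was called higher, where 23.3% of all genes were. Changed in either direction were 6 of 10 host genes and 47.8% of all genes, so being changed did not set the host genes apart. The median log2 fold change of the 10 host genes was -0.18, and that of all genes was 0.0015. In 7 of the 10 host genes the 3 DMSO samples did not overlap the 3 fostamatinib samples, as in 54.1% of all genes. An exact permutation test of 3 against 3 samples cannot give a p-value below 0.1. Samples of bulk RNA cannot tell fewer cells of a kind from less RNA per cell.

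**Figure D1:**
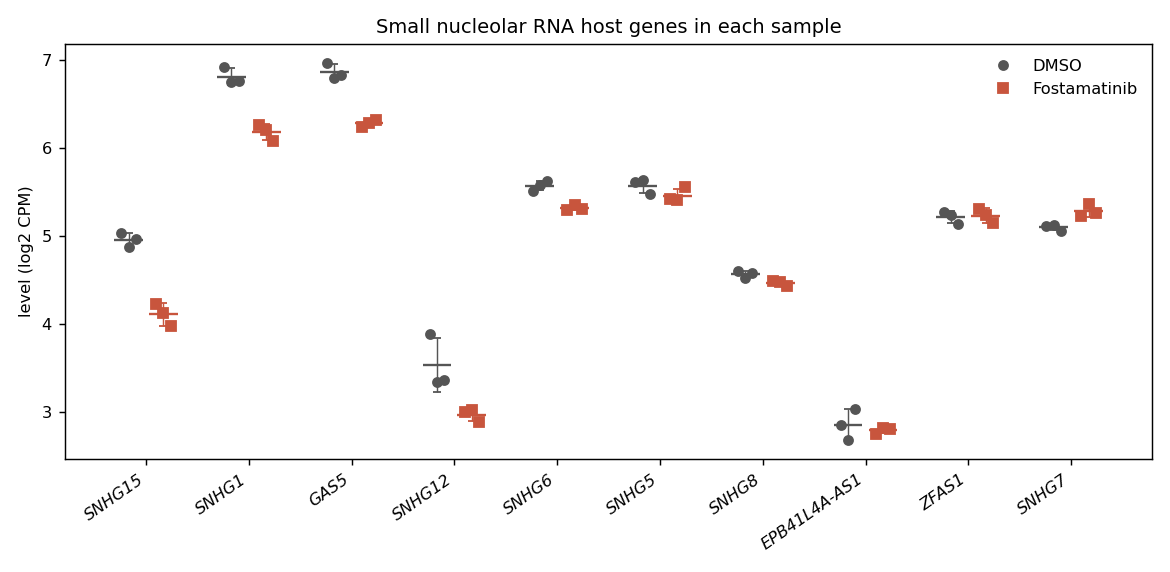
Level of each of the 10 host genes (log2 CPM, vertical axis) in the 3 DMSO samples (circles) and the 3 fostamatinib samples (squares), with bars for the mean and SD of each group. The samples of SNHG15, SNHG1 and GAS5 lie far apart by treatment, those of ZFAS1 and EPB41L4A-AS1 overlap, and those of SNHG7 are higher after fostamatinib.

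GAS5 (ENSG00000234741, chr1:173827697-173838020, minus strand, hg19/GRCh37) was first known as a transcript that accumulates in growth-arrested cells. It holds 11 annotated snoRNA genes, the most of the 10 hosts, and 10 of them have C/D names. Its level was 6.96, 6.80 and 6.83 log2 CPM with DMSO (1685 to 1719 reads) and 6.23, 6.28 and 6.32 with fostamatinib (1035 to 1106 reads). Every fostamatinib sample was below every DMSO sample. The group means were 6.86 ± 0.089 and 6.28 ± 0.042 log2 CPM (SD, n = 3 each). GAS5 RNA thus fell by 33.3%, or -0.58 ± 0.050 as a log2 fold change with its standard error (adjusted p = 4.92e-12, limma). Of its snoRNAs, SNORD78 at chr1:173834760-173834824 on the minus strand of GRCh37 is shown as an example of what the introns carry. In this sequence and those of the other C/D snoRNAs that follow, capitals mark the D box (CTGA) near the 3′ end and, where its letters are present, the C box (TGATGA) near the 5′ end.
SNORD78: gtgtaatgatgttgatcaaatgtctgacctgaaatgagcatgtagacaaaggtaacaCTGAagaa
The letters TGATGA do not occur in this stretch. Among 390 annotated transcripts with SNORD names, 64.4% hold TGATGA and 88.7% hold CTGA on the strand of the RNA.

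SNHG1 (ENSG00000255717, chr11:62619450-62623425, minus strand) is the other host rich in C/D snoRNAs, with 8 of them (SNORD22 and SNORD25 to SNORD31) among 9 nested snoRNA genes. Its level was 6.92, 6.75 and 6.75 log2 CPM with DMSO and 6.26, 6.20 and 6.08 with fostamatinib. The groups did not overlap, and the third fostamatinib sample was the lowest. With means of 6.81 ± 0.096 and 6.18 ± 0.092 log2 CPM (SD, n = 3 each), the RNA fell by 35.2%; the log2 fold change was -0.63, its standard error 0.054 and its adjusted p-value 4.91e-12 (limma). GAS5 and SNHG1 moved by similar amounts: the ratio of GAS5 to SNHG1 reads was 1.03, 1.03 and 1.05 with DMSO and 0.983, 1.05 and 1.18 with fostamatinib. These ranges overlapped. Together both genes held 47.9% to 49.96% of the reads of the 10 hosts with DMSO and 41.1% to 41.5% with fostamatinib.

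SNHG15 (ENSG00000232956, chr7:45022618-45026560, minus strand) carries a single annotated snoRNA, SNORA9 of the H/ACA class, and had the largest fall of the 10. With DMSO its samples had 5.03, 4.87 and 4.96 log2 CPM, and with fostamatinib 4.22, 4.12 and 3.97. The highest fostamatinib sample was well below the lowest DMSO sample. There were 445 to 463 reads a sample with DMSO and 207 to 256 with fostamatinib, and the means were 4.95 ± 0.081 and 4.10 ± 0.127 log2 CPM (SD, n = 3 each). SNHG15 RNA fell by 44.5%, with -0.85 as its log2 fold change (standard error 0.080, adjusted p = 5.30e-11, limma). The largest fall was thus in a gene with 1 snoRNA, and smaller falls followed in the genes with 9 and 11. SNHG12, with 4 snoRNA genes, came next at -0.56. The other hosts, with 1 to 3 each, had log2 fold changes from -0.26 to 0.19. A relation between the number of snoRNA genes and the fall was not tested.

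SNHG12 (ENSG00000197989, chr1:28905050-28909644, minus strand) carries both classes, with SNORA16A, SNORA44, SNORA61 and SNORD99. Its C/D snoRNA, at chr1:28905261-28905334 on the minus strand of GRCh37, is shown because the other 3 in this host are of the other class.
SNORD99: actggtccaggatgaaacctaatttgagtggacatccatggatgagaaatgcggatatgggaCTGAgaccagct
SNHG12 RNA measured 3.88, 3.34 and 3.36 log2 CPM with DMSO and 2.99, 3.02 and 2.88 with fostamatinib, from 152 to 203 reads and 97 to 115 reads. The first DMSO sample was far above the other two, and the groups still did not overlap. The means were 3.53 ± 0.309 and 2.96 ± 0.074 log2 CPM (SD, n = 3 each), a fall of 0.56 on the log2 scale with a standard error of 0.127 (adjusted p = 0.000359, limma). When each sample was left out in turn, the log2 fold change ran from -0.66 to -0.39 and stayed called.

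SNHG6 (ENSG00000245910, chr8:67832796-67838633, minus strand), the host of SNORD87, showed a smaller fall. Samples with DMSO had 5.51, 5.58 and 5.62 log2 CPM, and samples with fostamatinib 5.30, 5.34 and 5.30. These groups were close together and did not overlap. Between the means of 5.57 ± 0.055 and 5.31 ± 0.026 (SD, n = 3 each) the RNA fell by 16.3%, with a log2 fold change of -0.26, a standard error of 0.060 and an adjusted p-value of 0.000532 (limma). Of its exon bases, 58.9% also lie in exons of MCMDC2 on the opposite strand. MCMDC2 had 11 to 14 reads with DMSO and 15 to 17 reads with fostamatinib, far fewer than the 521 to 731 reads of SNHG6.

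SNHG7 (ENSG00000233016, chr9:139615818-139622636, minus strand), with SNORA17A and SNORA17B, was the single host called higher. The DMSO samples had 5.11, 5.12 and 5.05 log2 CPM and the fostamatinib samples 5.23, 5.36 and 5.26. Each fostamatinib sample was above each DMSO sample, by a small margin. The means were 5.10 ± 0.039 and 5.28 ± 0.070 log2 CPM (SD, n = 3 each), a rise of 0.19 on the log2 scale with a standard error of 0.064 (adjusted p = 0.0163, limma). Without the second fostamatinib sample the log2 fold change was 0.15 and the call was lost (adjusted p = 0.110, limma). Exons of FAM69B on the opposite strand share 30.3% of the exon bases of SNHG7, and FAM69B was also higher, with 303, 335 and 270 reads against 367, 331 and 310 (log2 fold change 0.24, standard error 0.085, adjusted p = 0.0180, limma). The library kit keeps the strand, but the strand setting of the counting is not given in the sources used here, so reads of the pair may not be told apart. The ratio of SNHG15 to SNHG7 reads was 0.836 to 0.941 with DMSO and 0.407 to 0.497 with fostamatinib.

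Under a stricter threshold, which lets through 1 expected false positive over the whole table, GAS5, SNHG1 and SNHG15 were still called and SNHG6, SNHG7 and SNHG12 were not.

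ZFAS1 (ENSG00000177410, chr20:47894715-47916137, plus strand), named as an antisense neighbour of ZNFX1, hosts 3 related C/D snoRNAs. They are shown together because their shared letters mark them as one family; positions are on the plus strand of GRCh37, at chr20:47895477-47895565 (SNORD12C), chr20:47896856-47896946 (SNORD12B) and chr20:47897220-47897309 (SNORD12).
SNORD12C: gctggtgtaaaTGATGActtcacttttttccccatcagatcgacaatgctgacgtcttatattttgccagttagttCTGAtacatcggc
SNORD12B: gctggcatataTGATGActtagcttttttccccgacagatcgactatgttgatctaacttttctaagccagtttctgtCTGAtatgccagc
SNORD12: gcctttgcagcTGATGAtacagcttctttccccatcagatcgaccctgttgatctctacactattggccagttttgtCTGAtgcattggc
All 3 hold both boxes, as 59.5% of the annotated transcripts with SNORD names do, and their longest common run has 9 bases.

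ZFAS1 RNA stood at 5.27, 5.23 and 5.14 log2 CPM with DMSO and 5.31, 5.23 and 5.14 with fostamatinib. The groups overlapped almost completely. The log2 fold change was 0.015, with a standard error of 0.066 and a 95% interval from -0.12 to 0.15 (adjusted p = 0.872, limma). This interval leaves room for a change of 0.15 on the log2 scale and not for one the size of that of GAS5. The ratio of GAS5 to ZFAS1 reads was 3.24, 2.97 and 3.23 with DMSO and 1.90, 2.07 and 2.26 with fostamatinib. The ratio of SNHG1 to ZFAS1 reads was 3.14, 2.87 and 3.07 with DMSO and 1.94, 1.97 and 1.92 with fostamatinib. Neither ratio overlapped between the groups, so within these libraries the hosts of C/D snoRNAs did not move by equal amounts.

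SNHG5 (ENSG00000203875, chr6:86360209-86388650, minus strand), which carries SNORD50A and SNORD50B, had 5.61, 5.63 and 5.47 log2 CPM with DMSO and 5.41, 5.41 and 5.55 with fostamatinib. The third fostamatinib sample was above the third DMSO sample, so the groups overlapped. The log2 fold change was -0.11, with a standard error of 0.062 and a 95% interval from -0.24 to 0.014 (adjusted p = 0.138, limma). Without the third DMSO sample it was -0.16 and passed (adjusted p = 0.0288, limma).

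SNHG8 (ENSG00000269893, chr4:119199858-119206471, plus strand), the host of SNORA24, had 4.59, 4.51 and 4.58 log2 CPM with DMSO and 4.49, 4.48 and 4.42 with fostamatinib. The groups just failed to overlap. Its log2 fold change was -0.098, with a standard error of 0.076 and a 95% interval from -0.25 to 0.056 (adjusted p = 0.304, limma), so SNHG8 was not called.

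EPB41L4A-AS1 (ENSG00000224032, chr5:111496223-111500515, plus strand) hosts SNORA13, an H/ACA snoRNA at chr5:111497182-111497314 on the plus strand of GRCh37. It is shown beside the C/D snoRNAs above because its mark is different: the capitals are the ACA that stands 3 bases from the 3′ end.
SNORA13: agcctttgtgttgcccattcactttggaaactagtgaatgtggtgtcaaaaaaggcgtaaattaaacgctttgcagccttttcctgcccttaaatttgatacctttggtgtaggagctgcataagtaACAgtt
EPB41L4A-AS1 RNA had 99, 97 and 121 reads with DMSO and 92, 100 and 92 with fostamatinib, the fewest of the 10 hosts. Its samples overlapped at 2.85, 2.68 and 3.03 log2 CPM against 2.75, 2.82 and 2.80. The log2 fold change was -0.063, with a standard error of 0.132 and a 95% interval from -0.33 to 0.21 (adjusted p = 0.724, limma), which includes a fall of the size seen for SNHG6. On the opposite strand, exons of EPB41L4A share 51.2% of its exon bases, and those of PRSS12 share 37.6% of the exon bases of SNHG8.

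Levels of different genes were compared per kilobase of annotated exon, as log2 CPM per kb. With DMSO, SNHG1 was highest at 4.82, followed by GAS5 at 4.56, SNHG6 at 4.23, SNHG15 at 2.97, SNHG7 at 2.81 and ZFAS1 at 2.15. SNHG5 at 1.91 and SNHG8 at 1.84 lay next to each other, closer than the SD of SNHG5 (0.088), with SNHG12 at 1.43 and EPB41L4A-AS1 at 0.75 last. With fostamatinib, SNHG15 went from the fourth place to the sixth, to a level of 2.13, below SNHG7 at 2.99 and level with ZFAS1 at 2.17 within their SD of 0.127 and 0.083. SNHG6 and GAS5 were also level, at 3.975 and 3.97. The order depends on the exons taken as the length. Over the canonical transcript alone, GAS5 was highest with DMSO at 7.24, followed by SNHG1 at 6.59 and SNHG5 at 5.17. Added up, the 10 host genes had 492, 457 and 457 CPM with DMSO and 367, 368 and 359 CPM with fostamatinib. The sum did not overlap between the groups, and most of its fall came from GAS5 and SNHG1.

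Pyrimidine starts like those of TOP RNAs are known in several hosts, so the first 30 bases of each canonical transcript were read. A start of C within an unbroken run of at least 5 pyrimidines (C or T) was present in GAS5, SNHG12 and ZFAS1, which is 3 of 10 hosts, and in 4.72% of 15968 listed genes with a canonical transcript. GAS5, which was lower, and ZFAS1, which was not called, are shown side by side, with the run in capitals; they start at chr1:173837098-173837127 on the minus strand and chr20:47895179-47895208 on the plus strand of GRCh37.
GAS5: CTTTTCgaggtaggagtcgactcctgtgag
ZFAS1: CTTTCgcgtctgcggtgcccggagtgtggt
The third host with a run, SNHG12, was lower, with a log2 fold change of -0.56. Whether the run bears on the RNA levels was not tested. Annotated start sites differ between transcripts of a gene, so the letters describe 1 transcript each.

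The genes that lie beside the hosts were read next. SNHG1 stands head to head with SLC3A2, the heavy chain of several amino acid transporters, with 50 bases between their starts at chr11:62623426-62623475 of GRCh37. The stretch is printed on the minus strand, so that it runs toward the start of SNHG1.
SNHG1-SLC3A2: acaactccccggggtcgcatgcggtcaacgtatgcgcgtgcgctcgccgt
SLC3A2 had 5811, 6427 and 5799 reads with DMSO and 3786, 3894 and 3602 reads with fostamatinib, and the groups did not overlap. Its log2 fold change was -0.59 with a standard error of 0.038 (adjusted p = 2.77e-15, limma), beside -0.63 for SNHG1. In 2 further pairs with close starts on opposite strands, neither neighbour was lower. All distances between starts use the outermost annotated ends of the genes, and canonical transcripts can start elsewhere. ZBTB37 starts at chr1:173837220, which is 800 bases from the outermost start of GAS5 but nearer to its canonical start at chr1:173837127. It had 154, 154 and 193 reads against 144, 172 and 162 (log2 fold change 0.026, standard error 0.110, adjusted p = 0.869, limma). ZNFX1, whose start lies 248 bases from that of ZFAS1, was slightly higher at 8.04 ± 0.0052 log2 CPM than with DMSO at 7.92 ± 0.045 (SD, n = 3 each, log2 fold change 0.12, adjusted p = 0.0106, limma).

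**Figure D2:**
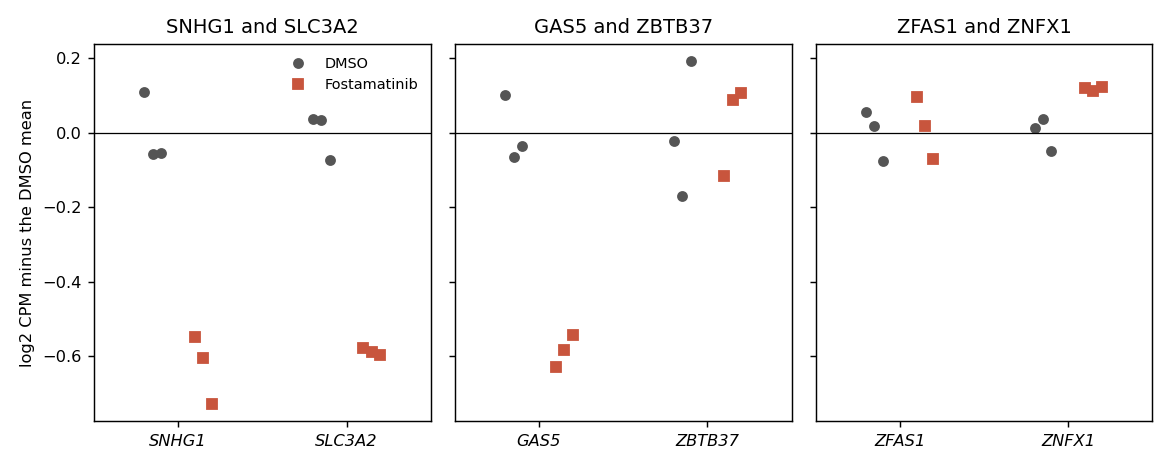
Difference of each sample from the DMSO mean of its gene (log2 CPM, vertical axis) for 3 hosts and the gene that starts beside each, with DMSO samples as circles and fostamatinib samples as squares. SNHG1 and SLC3A2 were both lower after fostamatinib, GAS5 was lower while ZBTB37 overlapped, and ZFAS1 overlapped while ZNFX1 was slightly higher.

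Other genes within 10000 bases of a host moved in either direction. SYNCRIP, 6428 bases from SNHG5, was lower with a log2 fold change of -0.36 (adjusted p = 1.39e-09, limma), while SNHG5 itself was not called. TAF12, beside SNHG12, was higher at 0.27 (adjusted p = 0.00457, limma), and TRNAU1AP (0.094) and RAB42 (-0.64, on 8 to 37 reads) were not called. GAS5-AS1, antisense to GAS5, had 3, 2 and 6 reads against 11, 7 and 7, at the edge of the threshold (log2 fold change 1.26, standard error 0.53, adjusted p = 0.0497, limma). GAS5-AS1 passed the read filter only through the fostamatinib group, so its direction was partly set by the filter. Farther off, WDR74, a ribosome assembly factor near SNHG1, was lower at -0.59 (adjusted p = 5.67e-10, limma).

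Other non-coding hosts of snoRNAs were called mostly in the lower direction. Of 16 that were matched by symbol, 8 were lower, none was higher and 8 were not called, with a median log2 fold change of -0.40. Among all genes, 24.5% were lower and 23.3% were higher. In several other fits 1 of the 16 was called higher, limma-voom and RLE scaling among them. SNHG4 had 79, 73 and 88 reads with DMSO and 24, 48 and 40 with fostamatinib, and fell by 1.05 on the log2 scale with a standard error of 0.201 (adjusted p = 3.90e-05, limma). SNHG17 followed at -0.73 with a standard error of 0.098 (adjusted p = 1.10e-07, limma). SNHG10, SNHG16, SNHG3, DANCR and SNHG11 were lower, with log2 fold changes from -0.72 to -0.35. LRRC75A-AS1, the most abundant of the 16 by reads (6411 to 8424 a sample), had a log2 fold change of -0.14 (adjusted p = 0.00156, limma). The 8 hosts that were not called include several with few reads, such as SNHG25 with 0 to 7 reads, and C6orf48, which had 2169 to 2444 reads and a log2 fold change of 0.10 (adjusted p = 0.0536, limma).

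**Figure D3:**
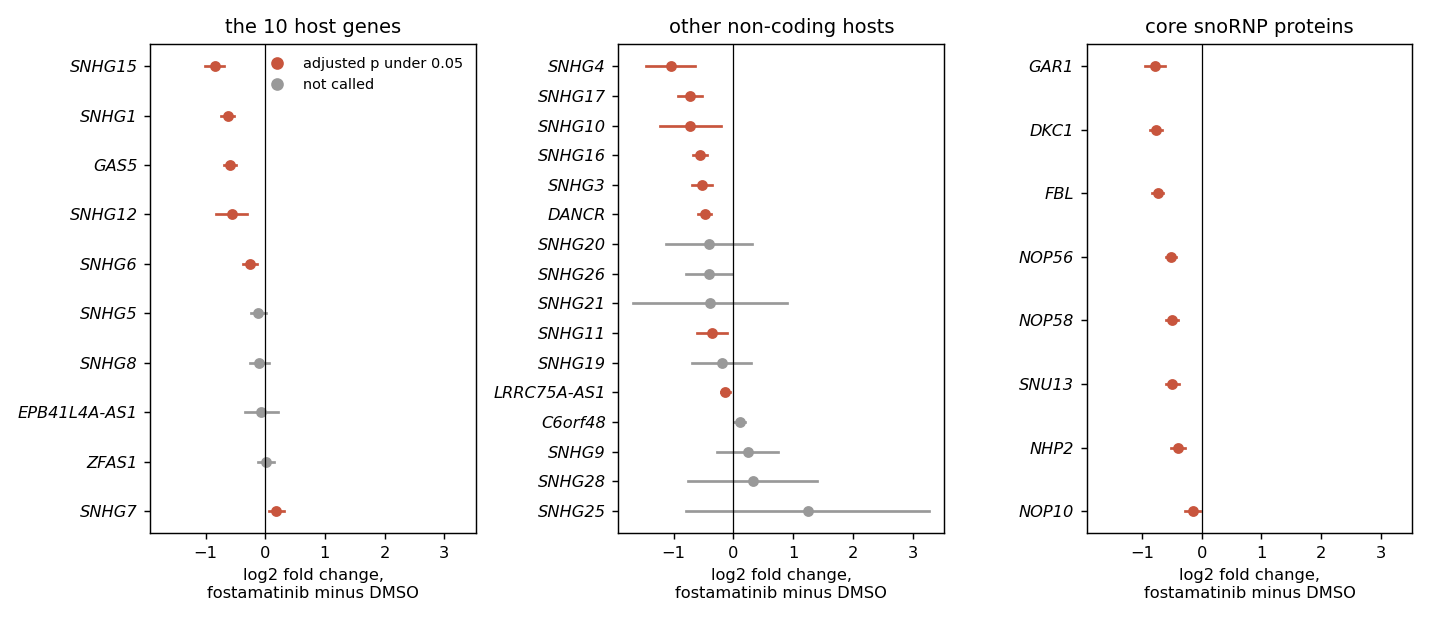
Log2 fold change (fostamatinib minus DMSO, horizontal axis) with its 95% interval for the 10 host genes, 16 other non-coding hosts and 8 core proteins of snoRNA particles; colour marks an adjusted p-value under 0.05. All 8 core proteins and the called members of the second group lie below 0, and among the 10 hosts SNHG7 alone is called above 0.

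Most snoRNAs lie in introns of protein-coding genes, many of them for ribosomal proteins and translation factors. Of 44 such hosts, 19 were lower, 5 were higher and 20 were not called, and their median log2 fold change was -0.069. The shares over all genes were 24.5% lower and 23.3% higher. EIF4A1, an RNA helicase of translation initiation, was lowest at -0.97 (standard error 0.237, adjusted p = 0.000890, limma), but had only 18 to 52 reads, and on its own strand 42.1% of its exon bases are shared with a non-coding gene and 28.2% with a readthrough gene. DKC1, the gene of dyskerin, had 1658, 1736 and 1628 reads against 909, 976 and 896 (log2 fold change -0.76, adjusted p = 2.83e-15, limma). The 5 higher hosts included EIF4A2 (0.26), CHD8 (0.17), TPT1 (0.16) and RPL13A (0.098). Fitted without a mean-variance trend, the test called 15 of the 44 in place of 24. Of all 16305 genes that fit called 6382 in place of 7794.

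Genes of the proteins that bind snoRNAs were mostly lower, where 24.5% of all genes were lower and 23.3% were higher. All 8 core proteins of the snoRNA particles were called lower, with a median of -0.50. Without a mean-variance trend or with 1 expected false positive allowed, 7 of the 8 were called, all lower. The same held with DMSO sample 1 or 2 or fostamatinib sample 2 or 3 left out. In these fits 4136 to 7327 of all genes were called. GAR1, an H/ACA protein, had 351, 367 and 393 reads against 201, 215 and 191, and its log2 fold change was -0.78 with a standard error of 0.082 (adjusted p = 5.47e-10, limma). DKC1 came next, with the values above. FBL, the gene of fibrillarin, fell by 0.73 on the log2 scale (adjusted p = 1.18e-15, limma), and NOP56, NOP58 and SNU13 of the C/D particle, and NHP2, were lower, with values from -0.51 to -0.40. NOP10 had the smallest change, -0.15, and its groups overlapped (adjusted p = 0.0297, limma). Of 12 factors that assemble or process these particles, 9 were lower, none was higher and 3 were not called, with a median of -0.31. NOLC1, a nucleolar chaperone of the particles, had the largest fall, -0.86 (standard error 0.043, adjusted p = 1.79e-18, limma). NAF1, which loads H/ACA proteins, followed at -0.58 (adjusted p = 5.25e-06, limma), and ZNHIT3 had a value of 0.19 that did not pass (adjusted p = 0.0760, limma). With 1 expected false positive allowed, 5 of the 12 were called, and 4136 of all 16305 genes.

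Factors of nonsense-mediated decay were called in both directions. Of 16, 4 were lower, 4 were higher and 8 were not called, with a median of -0.011. These counts are near the shares of all genes, 24.5% lower and 23.3% higher, so they do not set the factors apart. MAGOHB and RNPS1, of the exon junction complex, were lower at -0.40 and -0.35 (adjusted p = 1.77e-05 and 8.45e-08, limma). SMG6, the endonuclease of the pathway, was higher at 0.27 (adjusted p = 6.49e-05, limma), and UPF3A and UPF2 were higher at 0.14 each. UPF1, its central helicase, had 4484 to 5187 reads with DMSO and 4523 to 4712 with fostamatinib and was not called (log2 fold change 0.035, adjusted p = 0.474, limma; named after its value was seen). Without the second fostamatinib sample, without a mean-variance trend or with 1 expected false positive allowed, 5 of the 16 were called, 4 of them lower and 1 higher. Of all genes, 6972, 6382 and 4136 were called in these fits, in place of 7794.

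Of 17 mRNAs known as targets of the decay pathway, 9 were lower, 4 were higher and 4 were not called, with a median of -0.17. The shares of all genes, for this list and the TOP mRNAs below, were 24.5% lower and 23.3% higher. The largest falls were in the stress genes GADD45A, with 1156, 1192 and 1188 reads against 276, 264 and 280 (log2 fold change -2.02, adjusted p = 5.72e-24, limma), and ATF3 (-1.28, adjusted p = 1.37e-16, limma). CLK4 and CLK1, kinases of splicing factors, were higher at 0.68 and 0.39 (adjusted p = 2.65e-07 and 6.71e-07, limma), as were GADD45B (0.33) and SRSF6 (0.20). Among 16 TOP mRNAs of the translation machinery, 7 were lower, 4 were higher and 5 were not called, with a median of -0.043. NPM1 (-0.58) and NAP1L1 (-0.48) had the largest falls, and EEF1A1 (0.24) and EIF3F (0.22) the largest rises, with TPT1 (0.16) and EIF4B (0.094) also higher. Of these 16, the test without a mean-variance trend called 7, and of all genes it called 6382 in place of 7794.

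**Figure D4:**
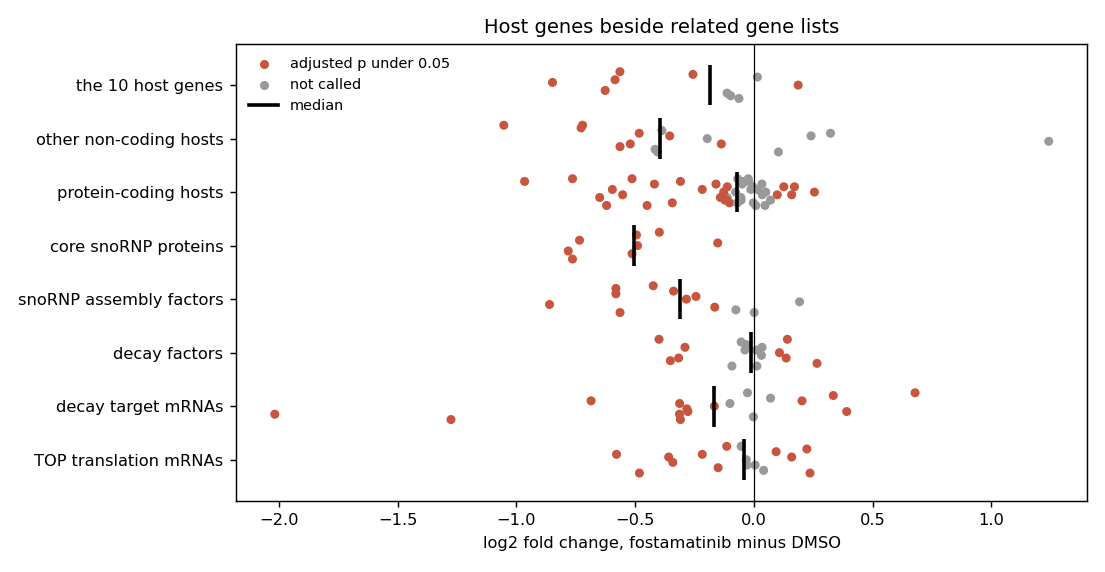
Log2 fold change (fostamatinib minus DMSO, horizontal axis) of each gene in 8 lists, 1 row a list, coloured by an adjusted p-value under 0.05, with a black bar at each median. The medians run from -0.50 for the core proteins to -0.011 for the decay factors, and the 10 host genes have a median of -0.18.

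The libraries held 13303451 to 15272737 reads on the listed genes and separated by treatment: the correlation of log2 CPM was at least 0.988 within a group and at most 0.972 between groups. ALB, AFP and 8 further hepatocyte markers were all listed. All 10 were called higher after fostamatinib, where 23.3% of all genes were. Their summed level was 5106 to 5442 CPM with DMSO and 6930 to 7334 CPM with fostamatinib. Of 9 markers of blood, endothelial and fibroblast cells, 4 were listed, while PTPRC, CD3E, CD68 and VWF were among those not listed. The 4 had 15.005 to 16.4 CPM in sum with DMSO and 20.9 to 22.2 CPM with fostamatinib. Of these 4, PECAM1 (0.51) and PDGFRB (0.95) were also called higher, and none had a log2 fold change below 0. The part of these shifts in the values of the host genes was not tested.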

How the data were processed

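RNA-seq was analysed for 3 DMSO and 3 fostamatinib samples of Huh7-R cells, grouped by the labels. The authors selected poly(A) RNA, made directional libraries, used HISAT to map reads to hg19 and featureCounts with GENCODE version 22 to count them, left out genes that in both groups had under 5 reads in 2 or more of the 3 samples, and scaled by TMM. The deposited values are log2 CPM, with 0.5 added to each count by the authors. Reads were recovered from them (100% within 0.05 of a whole number).

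The planned test for log2 values, limma 3.58.1 in R 4.3.3 (lmFit, eBayes with trend), was fitted over 16305 genes and tested on simulated data. A ribosomal RNA gene repeated in 6 further rows was used once. Coordinates, exons and sequences are from GRCh37 with GENCODE version 44 mapped to it (98.7% of identifiers found). Nested snoRNA names are from the RefSeq gene table. Tables were made with Python 3.11.15 and pandas 2.3.3. Named were all members, all genes within 10000 bases of one and, from each list, the called genes with the 2 largest changes in each direction or against most of the list; others were named after their values were seen, and a few that the rule selects are not reported here. The members and lists were chosen with earlier results of these data known. Alternatives were limma-voom, no trend, other scalings, filters and prior counts, a replicate block, a stricter threshold and leaving out each sample. Precision is set by 3 samples per group.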

Additional observations from a re-analysis of the deposited data

How the results depend on the processing

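Of the 10 host genes, GAS5, SNHG1, SNHG15, SNHG6 and SNHG12 kept their direction and their call under limma-voom, no trend, RLE or library-size scaling, 2 stricter filters, a prior count of 2 reads, the replicate block and the omission of each sample. Without a trend their adjusted p-values were much larger, from 0.0017 for SNHG15 to 0.044 for SNHG12 (limma). With 1 expected false positive, SNHG6 (-0.26), SNHG7 (0.19) and SNHG12 (-0.56) lost their calls; 4136 genes in all, 3 of the 10 hosts, 5 other non-coding hosts, 13 protein-coding hosts, 5 assembly factors and 5 decay factors were then called, since the threshold is stricter. Without a mean-variance trend 15 protein-coding hosts, 5 decay factors and 7 TOP mRNAs were called. In that fit 6382 of all genes were called, in place of 7794. The cause was not tested. When 1 sample was left out, SNHG5 ran from -0.16 to -0.083, SNHG7 from 0.15 to 0.21, ZFAS1 from -0.026 to 0.057 (-0.023 without DMSO replicate 3 and -0.026 without fostamatinib replicate 1) and EPB41L4A-AS1 from -0.15 to 0.026 (0.026 without DMSO replicate 3), so the sign of the last pair is not fixed. From 5 to 7 of the hosts, 5 to 7 decay factors and 6958 to 7480 of all genes were then called. Both groups carry the same replicate numbers. Deviations of same-numbered samples correlated at 0.036, -0.021 and 0.037 over 12249 genes, with sparse genes left out. No common pattern by number was thus seen across those genes. The correlations cannot tell whether same-numbered samples share a culture or a batch, since such sharing may touch few genes or sparse ones. With the replicate block 7977 genes, in place of 7794, and 6 of the 10 hosts were called. Among the other non-coding hosts 1 was called higher, in place of none, under limma-voom, RLE scaling, the filter of 10 reads, the prior count of 2 reads, the replicate block and without DMSO replicate 1 or 2 or fostamatinib replicate 3. No scaling moved the median of all genes by over 0.1. Depth limits EPB41L4A-AS1 and the hosts with few reads.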

Other observations

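A few snoRNA genes are listed themselves, although the libraries were selected for poly(A) RNA. Of 18, none had more than 30 reads in a sample, and 2 were called lower, where 24.5% of all genes were. All 18 had a log2 fold change below 0. Several of them, SNORA71C and SNORD12B included, passed the read filter only through the DMSO group. The direction of such rows was partly set by the filter, so the common sign is not a result. SNORA33 had 23, 22 and 30 reads with DMSO and 9, 10 and 7 with fostamatinib (log2 fold change -1.39, standard error 0.323, adjusted p = 0.000503, limma). SNORA71C, which overlaps exons of SNHG17, had 3, 10 and 9 reads against 1, 1 and 3 (log2 fold change -1.73, adjusted p = 0.0299, limma), and its groups overlapped. SNORD12B, inside ZFAS1, had 7, 3 and 8 reads against 0, 2 and 7 and was not called (adjusted p = 0.124, limma).

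In promoters from RefSeq (GRCh38.p14, 250 bases before to 50 after the start), 8 of the 10 hosts were matched. The letters CACGTG, on either strand, were present in that of SNHG7 and in 7.43% of 27305 promoters. TGATGNAA, on either strand, was present in none of the 8 and in 3.67% of all.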
